A study of Mus musculus with 12 samples.

Results

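The genes described here were the 10 rows of the deposited count tables whose Ensembl mouse gene identifiers map to Nos2, Gch1, Ass1, Asl, Slc7a2, Arg1, Arg2, Odc1, Spsb1 and Spsb2, out of 46078 gene identifiers in all. They cover inducible nitric oxide synthase, its cofactor and substrate supply, the competing arginases with the polyamine step behind them, and the SPSB proteins that control the synthase. Messenger RNA was measured in 12 libraries from bone marrow-derived macrophages, marrow cells cultured for 7 days until they become macrophages. There were 4 groups of 3 libraries. All donors were male C57BL/6 mice labelled ApoE-/-, that is, without working Apoe. Dicer KO mice were titled Dicerfl/fl with LysMcre/+, a knock-in that expresses Cre from the Lyz2 promoter, which is used in macrophages and granulocytes. Littermate controls were titled Dicer+/+ with LysMcre/+. Every culture received diluted ethanol overnight. It then had D-PBS (vehicle) or LPS, the endotoxin of Gram-negative bacteria sensed through TLR4, for 6 h, at a labelled 100 ng/ul. Nothing in the labels ties a replicate to a mouse of its own, so p-values reflect only the scatter among these libraries, which may be technical.

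Macrophages that meet bacterial products make inducible nitric oxide synthase, the product of Nos2, which turns arginine and oxygen into citrulline and nitric oxide. The enzyme needs tetrahydrobiopterin, whose synthesis starts with GTP cyclohydrolase, the product of Gch1. Argininosuccinate synthase (Ass1) and argininosuccinate lyase (Asl) turn the released citrulline back into arginine, and the cationic amino acid transporter CAT2 (Slc7a2) brings arginine in from outside. Arginase in the cytosol (Arg1) and in mitochondria (Arg2) competes for the same arginine and releases ornithine, which ornithine decarboxylase (Odc1) feeds into polyamine synthesis. SPSB1 and SPSB2 bind the synthase protein and bring it to a ubiquitin ligase, so that it is degraded. Dicer1 encodes the nuclease that releases mature microRNAs from their precursors, and microRNAs lower the output of messenger RNAs that pair with their seed.

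Each library held between 16172600 and 18886948 reads counted in genes. Levels are given as CPM, the usual unit of read counts scaled to a common library size, here the size after edgeR's TMM scaling, which centres the bulk of genes. Log2 fold changes carry the standard error (SE) of the model. Dicer1, the gene targeted, was 2.21-fold lower in Dicer KO than in control with vehicle (edgeR adjusted p = 1.47e-10) and 3.18-fold lower with LPS. It read 42.6 to 45.3 CPM in control and 19.4 to 20.1 CPM in Dicer KO with vehicle, and 47.0 to 52.5 and 14.3 to 16.3 CPM with LPS, with no overlap of the genotypes. Apoe, labelled as deleted in all groups, read 3.67 to 20.0 CPM over the 6 control libraries and 0.979 to 6.14 CPM over the 6 Dicer KO libraries. The titles give LysMcre/+ to both genotypes, but another label field calls the controls wildtype. Lyz2 was 405-fold lower in Dicer KO with vehicle (mean 14.1 against 5714 CPM) and 215-fold lower with LPS (18.9 against 4060 CPM). LysMcre/+ names an intact Lyz2 copy beside the knock-in, so levels this low in Dicer KO do not match that title. Each genotype comparison below therefore differs at the Lyz2 locus and in Apoe reads as well as at Dicer1, and these contributions cannot be told apart. One library of each vehicle group, control replicate 3 and Dicer KO replicate 2, stood apart from the other replicates of its group over all genes, and results that depend on them are given with and without them. All 10 macrophage markers passed the filter on low counts, with summed levels of 7189 to 9584 CPM over the 12 libraries. Of these 10, 3 were higher and 6 lower in Dicer KO with vehicle, beside 25% and 21.2% of all genes tested. With LPS 4 were higher and 4 lower, beside 28.8% and 27%. Markers of neutrophils and granulocyte precursors summed to 94.3 to 135.3 CPM with vehicle and 148.9 to 180.2 CPM with LPS. Of those, 9 passed the filter, with 0 higher and 1 lower in Dicer KO with vehicle and 1 and 0 with LPS. The 8 dendritic cell markers summed to 17.2 to 21.4 CPM in the 6 control libraries and to 61.4 to 65.0 CPM in the 6 Dicer KO libraries. Of these 8, 4 passed the filter, with 3 higher and 1 lower in Dicer KO with LPS, beside 28.8% and 27% of all genes tested. In vehicle 3 were higher and 0 lower, beside 25% and 21.2%. Stromal markers summed to 0.836 to 1.63 CPM with vehicle and 23.2 to 37.5 CPM with LPS, but only 1 of the 8 passed the filter. The part of these marker differences in the results below was not tested. In such bulk libraries, fewer cells of a type and less RNA per cell cannot be told apart.

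LPS moved every member that could be tested, and the genotype moved most of them once LPS had been given. Of the 10 genes, 9 passed the filter on low counts, and Arg1 did not. Each of those 9 had at least 10 reads in all 3 control vehicle libraries. With LPS against vehicle in control, 7 of the 9 rose and 2 fell (Asl and Spsb2), all at an adjusted p under 0.05, beside 79.1% of the 13837 genes tested (38% higher and 41.1% lower). In Dicer KO the counts were again 7 that rose and the same 2 that fell, beside 80.1% of all genes called (37.4% higher and 42.7% lower). With Dicer KO against control in LPS, Nos2, Gch1, Ass1, Arg2 and Spsb1 were higher and Asl, Slc7a2 and Spsb2 lower, so that 8 of 9 were called beside 55.8% of all genes (28.8% higher and 27% lower). In vehicle, Nos2, Gch1 and Ass1 were higher in Dicer KO and Slc7a2 lower, 4 of 9 beside 46.2% of all genes (25% higher and 21.2% lower). The LPS response itself differed between genotypes for 6 of 9 members beside 33.7% of all genes. The log2 response was greater in Dicer KO for Slc7a2, Arg2 and Spsb1 (14.9% of all genes) and lower for Ass1, Asl and Spsb2 (18.8%). The median log2 fold change of the 9 members in the 2 LPS comparisons was 2.85 in control and 3.28 in Dicer KO, beside -0.06 and -0.10 over all genes tested. For Dicer KO against control it was 0.37 in LPS and 0.07 in vehicle, beside -0.03 and 0.01. These shares lie above the share of all genes called in 4 of the 5 comparisons, while the vehicle genotype comparison had 4 of 9 called, close to the share of all genes.

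**Figure D1:**
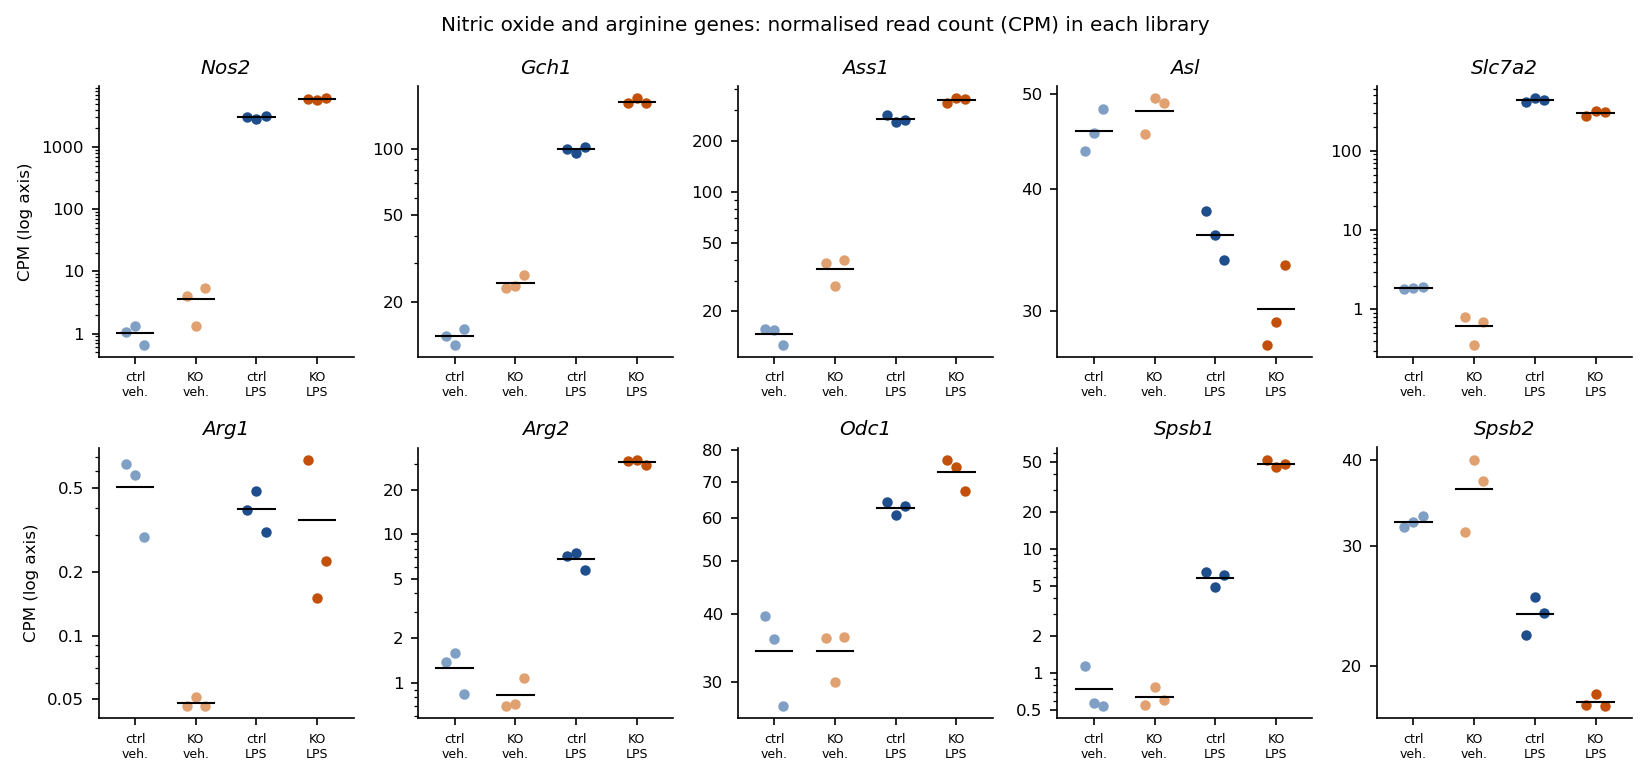
Level of each of the 10 genes in each of the 12 libraries, in CPM on a log axis, with 3 points per group and a line at the group mean (ctrl, control; KO, Dicer KO; veh., vehicle). Nos2 and Slc7a2 span the widest range, Asl and Spsb2 are lower with LPS, and Arg2 and Spsb1 are highest in the 3 Dicer KO libraries with LPS.

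Nos2, the synthase itself, went from near the detection limit to one of the most abundant messages (ENSMUSG00000020826, chr11:78920787-78960254, plus strand, GRCm38). With vehicle, the control libraries read 1.05, 1.34 and 0.669 CPM (26, 33 and 16 reads) and the Dicer KO libraries 4.05, 1.34 and 5.51 CPM (87, 26 and 118 reads). With LPS, the control libraries read 3029, 2864 and 3212 CPM and the Dicer KO libraries 5871, 5815 and 6102 CPM. All 6 LPS libraries stood far above all 6 vehicle libraries, and the 3 Dicer KO libraries with LPS were all above the 3 control libraries with LPS. With vehicle the genotypes overlapped, because Dicer KO replicate 2 read within the control range. LPS raised Nos2 by 11.52 ± 0.32 on the log2 scale in control (2943-fold, adjusted p = 7.03e-11) and by 10.65 ± 0.29 in Dicer KO (1605-fold, adjusted p = 5.78e-11). Nos2 then made up 0.264 to 0.291% of all gene reads in control and 0.413 to 0.431% in Dicer KO, ranking between 26 and 30 and between 17 and 18 among all genes by read count. Dicer KO exceeded control 1.95-fold with LPS (log2 0.97 ± 0.18, adjusted p = 0.00113) and 3.58-fold with vehicle (log2 1.84 ± 0.45, adjusted p = 0.00715). With each library left out in turn, the vehicle difference ranged from 1.42 without Dicer KO vehicle replicate 3 (adjusted p = 0.0157) to 2.22 without Dicer KO vehicle replicate 2 (adjusted p = 2.63e-08). The LPS responses of the genotypes differed by -0.87 ± 0.49 (adjusted p = 0.212), a difference that passed the threshold when Dicer KO vehicle replicate 2 was left out (-1.25, adjusted p = 0.000175) and without both libraries that stood apart (-1.02, adjusted p = 0.000188).

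Gch1, which makes the first committed step towards tetrahydrobiopterin, was higher in Dicer KO under both treatments (ENSMUSG00000037580, chr14:47153895-47189413, minus strand). Its vehicle values were 13.9, 12.7 and 15 CPM in control and 23.2, 23.5 and 26.4 CPM in Dicer KO. The LPS values were 100.6, 96.0 and 102.6 CPM in control and 161.9, 171 and 162.3 CPM in Dicer KO. No pair of groups overlapped, and the replicates of each group lay close together. Dicer KO exceeded control 1.76-fold with vehicle (log2 0.81 ± 0.07, adjusted p = 4.84e-08) and 1.66-fold with LPS (log2 0.73 ± 0.06, adjusted p = 5.32e-09). LPS raised Gch1 7.19-fold in control (adjusted p = 1.33e-17) and 6.77-fold in Dicer KO (adjusted p = 8.94e-18). The responses differed by -0.09 ± 0.09 on the log2 scale (adjusted p = 0.502) with TMM scaling and by -0.31 (adjusted p = 0.00849) when libraries were scaled by their totals alone.

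Ass1 and Asl, the 2 enzymes that remake arginine from citrulline, moved apart. Ass1 (ENSMUSG00000076441, chr2:31470207-31520672, plus strand) read 15.7, 15.6 and 12.8 CPM in control with vehicle and 38.6, 28.0 and 40.1 CPM in Dicer KO with vehicle. With LPS it read 282, 256.4 and 264.9 CPM in control and 333.8, 353.5 and 351.8 CPM in Dicer KO. The groups did not overlap, and the gap between genotypes was wider in proportion with vehicle than with LPS. Dicer KO exceeded control 2.42-fold with vehicle (log2 1.28 ± 0.12, adjusted p = 1.53e-06) and 1.29-fold with LPS (log2 0.37 ± 0.10, adjusted p = 0.00528), and scaling by library totals took the LPS difference to 0.02 (adjusted p = 0.866). LPS raised Ass1 18.2-fold in control (adjusted p = 2.6e-13) and 9.72-fold in Dicer KO (adjusted p = 1.67e-12), responses that differed by -0.91 ± 0.15 on the log2 scale (adjusted p = 0.000522). The annotation lists a pseudogene of Ass1, Ass-ps1, and reads shared with such a copy could be assigned to either or dropped.

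Asl (ENSMUSG00000025533, chr5:130011258-130029247, minus strand), which splits argininosuccinate into arginine and fumarate, did not follow Ass1. Its vehicle levels were 43.7, 45.6 and 48.2 CPM in control and 45.5, 49.5 and 49.0 CPM in Dicer KO, ranges that overlapped (log2 0.07 ± 0.07, adjusted p = 0.436). After LPS it read 38.0, 35.8 and 33.9 CPM in control and 27.7, 29.2 and 33.4 CPM in Dicer KO, with every LPS library below every vehicle library. LPS lowered it 1.28-fold in control (adjusted p = 0.000133) and 1.59-fold in Dicer KO (adjusted p = 7.97e-08), and with LPS the Dicer KO level was 1.19-fold lower (log2 -0.25 ± 0.07, adjusted p = 0.00793). The difference of the responses, -0.32 ± 0.10 (adjusted p = 0.0199), fell outside the threshold with DESeq2 (-0.27, adjusted p = 0.0661). It was also lost when 1 LPS library was left out, namely control replicate 1 (-0.28, adjusted p = 0.051), the first Dicer KO replicate (-0.27, adjusted p = 0.0598) or the second (-0.30, adjusted p = 0.0529).

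Slc7a2, the arginine transporter induced in activated macrophages, was the only member called lower in Dicer KO under both treatments among the 9 tested (ENSMUSG00000031596, chr8:40862396-40922308, plus strand). Control vehicle libraries read 1.82, 1.87 and 1.92 CPM (45, 46 and 46 reads), and Dicer KO vehicle libraries 0.791, 0.360 and 0.700 CPM (17, 7 and 15 reads). With LPS the control libraries read 418.5, 460.1 and 441 CPM and the Dicer KO libraries 271.8, 319 and 310.8 CPM. The genotypes did not overlap under either treatment, and control was the higher one each time. Dicer KO was 2.97-fold lower with vehicle (log2 -1.57 ± 0.23, adjusted p = 2.02e-05) and 1.46-fold lower with LPS (log2 -0.55 ± 0.06, adjusted p = 9.36e-07). LPS raised Slc7a2 234-fold in control (adjusted p = 1.13e-20) and 476-fold in Dicer KO (adjusted p = 1.2e-20), and the log2 responses differed by 1.02 ± 0.24 (adjusted p = 0.00305). Exons of Gm26584 on the opposite strand cover 6.95% of the Slc7a2 exons. Gm26584 read 7.01 to 8.81 CPM in control and 4.51 to 5.48 CPM in Dicer KO with LPS. Which strand was counted is not given in the sources used here, so reads of the 2 genes in that stretch cannot be told apart.

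**Figure D2:**
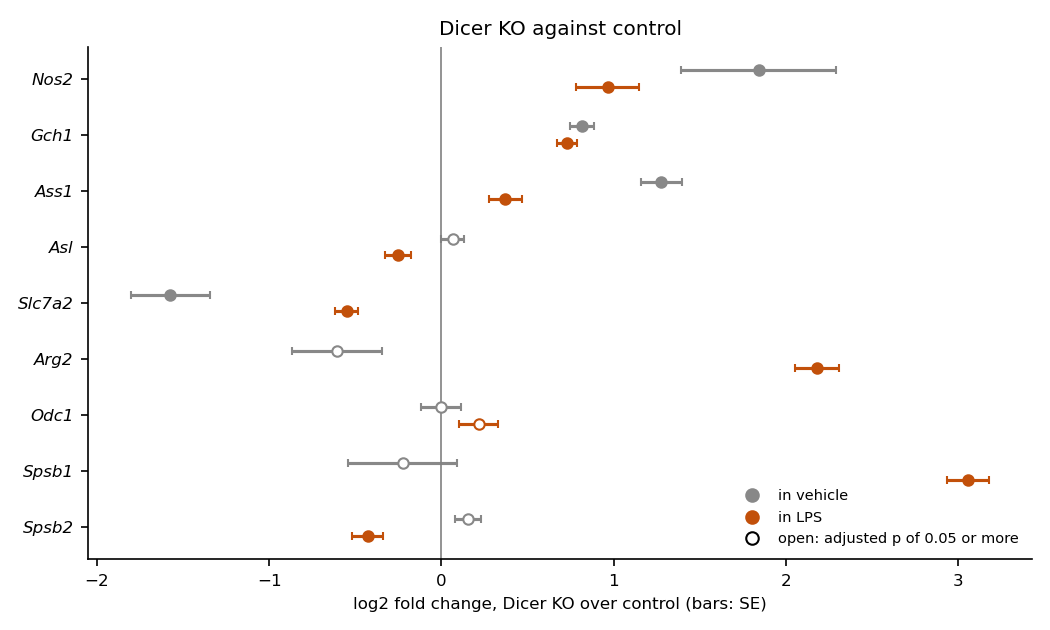
Log2 fold change of Dicer KO over control for the 9 genes tested, with vehicle (grey) and with LPS (orange), as points with bars of 1 SE (n = 3 libraries per group). Spsb1 at 3.06 and Arg2 at 2.18 stand highest with LPS while their vehicle points are open, that is, not called, and Slc7a2 lies below 0 under both treatments.

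The arginases differed in level. Arg1, the cytosolic enzyme typical of alternatively activated macrophages (ENSMUSG00000019987, chr10:24915221-24927484, minus strand), was close to the detection limit in all 12 libraries and had too few reads to pass the filter. Control vehicle libraries held 16, 14 and 7 reads (0.648, 0.570 and 0.293 CPM), and each Dicer KO vehicle library held 1 read (0.0465, 0.0515 and 0.0467 CPM). With LPS the control libraries held 6, 8 and 5 reads (0.393, 0.484 and 0.310 CPM) and the Dicer KO libraries 9, 2 and 3 reads (0.676, 0.150 and 0.226 CPM). With vehicle every control library was above every Dicer KO library, a ratio of 10.5 with a 95% exact binomial interval of 3.33 to 53.3 that covers counting error only, and with LPS the genotypes overlapped. Within Dicer KO, LPS over vehicle gave a ratio of 7.29 (2.04 to 39.6). A two-sided exact permutation test over the 3 and 3 libraries gave p = 0.1 with vehicle, the smallest it can give, and p = 0.9 with LPS. In the Dicer KO LPS group, replicate 1 held 9 of the 14 reads. Arg1 had 10 or more reads in 2 libraries only, both control vehicle, so fits in which it entered, without the filter or with fewer libraries, give no test of its vehicle difference.

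Arg2, the mitochondrial arginase (ENSMUSG00000021125, chr12:79130777-79156301, plus strand), was higher in Dicer KO after LPS and rose further there than in control. It read 1.38, 1.59 and 0.836 CPM in control and 0.698, 0.721 and 1.07 CPM in Dicer KO with vehicle, from 14 to 39 reads per library. With LPS it read 7.14, 7.45 and 5.77 CPM in control and 31.3, 31.8 and 29.2 CPM in Dicer KO. The vehicle ranges overlapped, and the LPS ranges were far apart. Dicer KO exceeded control 4.53-fold with LPS (log2 2.18 ± 0.13, adjusted p = 1.12e-10). The vehicle difference was -0.60 ± 0.26 (adjusted p = 0.0674), called lower without control replicate 3 (-0.82, adjusted p = 0.0103), without both libraries that stood apart (-0.74, adjusted p = 0.0333) and without Dicer KO vehicle replicate 3 (-0.83, adjusted p = 0.0362). It was also called lower with library totals (-0.73, adjusted p = 0.0293) and with no filter (-0.64, adjusted p = 0.0372). LPS raised Arg2 5.32-fold in control (adjusted p = 4.82e-10) and 36.6-fold in Dicer KO (adjusted p = 1.64e-15), and the log2 responses differed by 2.78 ± 0.29 (adjusted p = 1.23e-06). Exons on the opposite strand, from Vti1b and Gm48780, cover 28.1% of the Arg2 exons. Vti1b differed between genotypes with LPS by 0.13 ± 0.06 (adjusted p = 0.0999), 50.2 to 54.6 CPM in control and 55.2 to 59.9 CPM in Dicer KO.

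Ass1 and Arg2 were the members whose 3' untranslated region holds letters complementary to the seed of miR-155-5p, a microRNA induced by LPS in macrophages, and their sites are shown because both were called higher in Dicer KO than in control with LPS. The mature microRNA, from RefSeq, has its seed (bases 2 to 8) in capitals. In each site, read from the GENCODE M21 transcript (GRCm38), the capitals mark the 7 bases that pair with that seed.
mmu-miR-155-5p: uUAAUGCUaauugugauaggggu
Ass1, chr2:31520461-31520481, plus strand: caggcttcAGCATTAattgtt
Arg2, chr12:79156054-79156074, plus strand: ttcacaacAGCATTAcagagt
The Ass1 match is followed by an A and starts at base 52 of a 255-base 3' untranslated region, and the Arg2 match starts at base 31 of 270. Of 3' untranslated regions of like length, 1.88% (of 851) and 1.91% (of 888) hold this match, against 9.15% of all 11750 searched. Ass1 was higher in Dicer KO under both treatments, while Arg2 was called higher with LPS only. Seeds of 18 macrophage microRNAs were searched in all. For Dicer KO against control in LPS, tested genes with a match to a given seed had a median log2 difference between -0.01 (miR-24-3p) and 0.10 (miR-142a-3p). It was 0.04 for the 1075 genes with a miR-155-5p match and -0.02 for all 11750 genes. The sets share genes, and all genes were not matched to them for the length of the 3' untranslated region. Whether lost microRNAs play a part was not tested. Neither Arg1 nor Odc1 held a match to any. Spsb1 held matches to miR-142a-5p, miR-24-3p and miR-221-3p, and Gch1 to miR-142a-5p, miR-146a-5p and miR-9-5p. Nos2 held a match to miR-17-5p, Asl to miR-27a-3p and Spsb2 to miR-24-3p. Among regions of like length, the shares with these matches ran from 3.875% (Asl) to 25.5% (miR-24-3p in Spsb1). Of these genes, Spsb1, Gch1 and Nos2 were called higher in Dicer KO with LPS, and Asl and Spsb2 lower. Slc7a2, with the longest region of the 10 at 5774 bases, held 9 matches to 8 microRNAs and was lower in Dicer KO. For each of those 8 seeds, between 29.2% and 63.8% of 480 regions of like length hold a match. A match is a description of letters only, and microRNA levels are not analysed here.

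Odc1, the entry enzyme of polyamine synthesis (ENSMUSG00000011179, chr12:17544794-17551505, plus strand), rose with LPS in both genotypes. Vehicle libraries read 39.6, 36.1 and 27.1 CPM in control and 36.1, 30.0 and 36.3 CPM in Dicer KO, with the lowest value in control replicate 3. LPS libraries read 64.1, 60.7 and 63.2 CPM in control and 76.7, 74.4 and 67.2 CPM in Dicer KO. LPS raised it 1.83-fold in control (adjusted p = 9.66e-06) and 2.13-fold in Dicer KO (adjusted p = 1.07e-06). With vehicle the genotypes differed by -0.00 ± 0.12 (adjusted p = 0.984). With LPS the 3 Dicer KO libraries were above the 3 control libraries, by 0.22 ± 0.11 (adjusted p = 0.124). That LPS difference was called by DESeq2 (0.27, adjusted p = 0.0489), in a fit of the 2 LPS groups alone (0.19, adjusted p = 0.00657) and without control vehicle replicate 3 (0.21, adjusted p = 0.0101), and it was -0.14 (adjusted p = 0.301) when libraries were scaled by their totals. The log2 responses differed by 0.22 ± 0.16 (adjusted p = 0.336), or by 0.36 (adjusted p = 0.00926) without control vehicle replicate 3.

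The 2 SPSB genes, whose proteins mark the synthase for degradation, moved in opposite directions. Spsb1 (ENSMUSG00000039911, chr4:149896283-149955043, minus strand) had the largest genotype difference with LPS among the 9 members tested. With vehicle it read 1.13, 0.570 and 0.543 CPM in control and 0.558, 0.772 and 0.607 CPM in Dicer KO, from 12 to 28 reads per library. With LPS it read 6.55, 4.96 and 6.14 CPM in control and 52.5, 45.6 and 48.6 CPM in Dicer KO. The vehicle ranges overlapped (log2 -0.22 ± 0.31, adjusted p = 0.587). With LPS every Dicer KO library was above every control library, 8.32-fold on average (log2 3.06 ± 0.12, adjusted p = 1.2e-12). LPS raised Spsb1 7.76-fold in control (adjusted p = 1.43e-10) and 75.4-fold in Dicer KO (adjusted p = 7.61e-17), and the log2 responses differed by 3.28 ± 0.35 (adjusted p = 1.45e-06). Gm13070, on the opposite strand over 2.34% of the Spsb1 exons, read 0.655 to 0.806 CPM in control and 4.21 to 4.97 CPM in Dicer KO with LPS.

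Spsb2 (ENSMUSG00000038451, chr6:124808661-124810619, plus strand) fell with LPS and fell further in Dicer KO. It read 31.9, 32.4 and 33.2 CPM in control and 31.4, 40.1 and 37.3 CPM in Dicer KO with vehicle (log2 0.16 ± 0.07, adjusted p = 0.0986). With LPS it read 22.2, 25.2 and 23.9 CPM in control and 17.5, 18.2 and 17.5 CPM in Dicer KO. The LPS groups did not overlap, and each lay below both vehicle groups. LPS lowered Spsb2 1.37-fold in control (adjusted p = 4.76e-05) and 2.04-fold in Dicer KO (adjusted p = 1.79e-09). With LPS the Dicer KO level was 1.34-fold below control (log2 -0.43 ± 0.09, adjusted p = 0.000536), and the log2 responses differed by -0.58 ± 0.12 (adjusted p = 0.000847). The vehicle difference was called without Dicer KO vehicle replicate 1 (0.25, adjusted p = 0.00566). Exons of Tpi1, a glycolysis gene on the opposite strand, cover 2.05% of the Spsb2 exons. Tpi1 read 878.1 to 934.4 CPM in control and 411 to 522.5 CPM in Dicer KO with LPS, and the part of this overlap in the Spsb2 result was not tested.

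**Figure D3:**
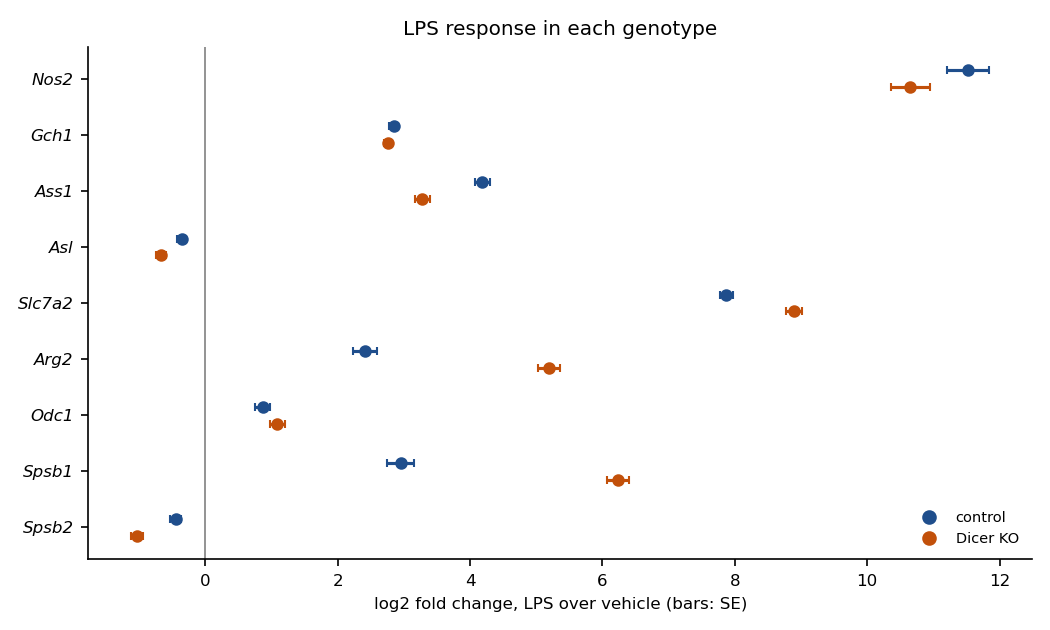
Log2 fold change of LPS over vehicle for the 9 genes tested, in control (blue) and Dicer KO (orange), as points with bars of 1 SE (n = 3 libraries per group), all with adjusted p under 0.05. The pairs for Spsb1 (2.96 and 6.24) and Arg2 (2.41 and 5.19) are farthest apart, and those for Asl and Spsb2 lie below 0.

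RefSeq promoter windows (build GRCm38.p6, 250 bases before to 50 after a start site) were at hand for 5 of the 10 genes, namely Ass1, Gch1, Odc1, Spsb1 and Spsb2. Those of Ass1, Gch1 and Spsb1 are shown because these genes rose with LPS and differed between genotypes with LPS. Capitals mark matches on either strand to the letters of NF-kappaB sites (GGG, any 5 bases, then CC) or to the E box CACGTG.
Ass1, chr2:31470020-31470319, plus strand: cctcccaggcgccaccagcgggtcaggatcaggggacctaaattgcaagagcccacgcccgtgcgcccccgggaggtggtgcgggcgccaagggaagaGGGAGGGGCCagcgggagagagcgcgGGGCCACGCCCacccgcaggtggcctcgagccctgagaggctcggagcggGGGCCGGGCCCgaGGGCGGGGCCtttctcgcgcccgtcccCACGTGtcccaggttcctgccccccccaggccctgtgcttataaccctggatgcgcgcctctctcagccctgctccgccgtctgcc
Gch1, chr14:47189364-47189663, minus strand: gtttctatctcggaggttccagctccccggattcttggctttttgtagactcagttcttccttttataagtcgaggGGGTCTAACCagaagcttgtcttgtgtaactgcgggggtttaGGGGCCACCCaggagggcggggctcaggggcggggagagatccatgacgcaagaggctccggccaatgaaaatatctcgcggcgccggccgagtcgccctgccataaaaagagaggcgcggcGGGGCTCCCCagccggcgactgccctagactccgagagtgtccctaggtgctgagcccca
Spsb1, chr4:149954957-149955256, minus strand: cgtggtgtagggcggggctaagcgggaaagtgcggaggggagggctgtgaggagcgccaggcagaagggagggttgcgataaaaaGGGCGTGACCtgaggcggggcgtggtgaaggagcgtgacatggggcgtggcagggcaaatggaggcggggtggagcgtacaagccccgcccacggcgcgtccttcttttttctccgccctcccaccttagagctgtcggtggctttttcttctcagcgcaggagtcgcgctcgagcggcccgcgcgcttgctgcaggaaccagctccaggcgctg
In these windows the NF-kappaB letters began at 6 positions in Ass1, of which 2 pairs overlap, at 3 places in Gch1 and at 1 place in Spsb1. The Odc1 window held 1 place and the windows of Spsb2, the gene that fell with LPS, held 0. Such letters occur in 50.8% of 32851 promoter windows of the same length. The windows of Odc1 (78.0% G and C), Ass1 (74.0%), Spsb1 (66.3%), Gch1 (60.3%) and Spsb2 (59.7% and 60.7%) are all rich in G and C. The E box, found in Ass1 alone of the 5 genes, occurs in 7.15% of windows. Neither the interferon-stimulated response letters (GAAA, any 2 bases, then GAAA, in 3.44% of windows) nor the STAT letters (TTC, any 3 bases, then GAA, in 8.30%) occurred in the windows of these 5 genes. Missing letters say only that they are not in these 300 bases.

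Levels of different genes were compared per kilobase of annotated exon (CPM per kb). With vehicle, Spsb2 stood highest of the 10 in both genotypes, at 19.6 ± 0.378 CPM per kb in control and 21.9 ± 2.68 in Dicer KO (SD, n = 3). In control with vehicle, Odc1 (10.1 ± 1.89 CPM per kb) and Asl (9.49 ± 0.469) followed with overlapping ranges, then Ass1 (6.09 ± 0.686), Gch1 (2.22 ± 0.183) and Arg2 (0.887 ± 0.272). In Dicer KO with vehicle, Ass1 (14.7 ± 2.75 CPM per kb) came next after Spsb2 and above Odc1 (10.03 ± 1.05) and Asl (9.94 ± 0.448), which overlapped. At the bottom in control with vehicle, Nos2, Arg1, Slc7a2 and Spsb1, between 0.170 and 0.232 CPM per kb on average, each overlapped the next in order. With LPS the order was led in both genotypes by Nos2 (688 ± 39.4 CPM per kb in control and 1344 ± 34.5 in Dicer KO), Ass1 (110.9 ± 5.39 and 143.5 ± 4.52) and Slc7a2 (48.1 ± 2.28 and 32.9 ± 2.76), with no overlap between neighbours. Below them in control came Odc1, Gch1, Spsb2, Asl, Arg2, Spsb1 and Arg1, also without overlap. In Dicer KO with LPS, Arg2 (21.5 ± 0.992 CPM per kb) overlapped Odc1 (21.4 ± 1.46), and Spsb1 (11.1 ± 0.792) overlapped Spsb2 (10.7 ± 0.238). In control with LPS, by contrast, Arg2 was at 4.75 ± 0.626 CPM per kb and Spsb1 at 1.34 ± 0.187. Arg1 was last in both LPS groups, at 0.178 ± 0.0391 and 0.157 ± 0.128 CPM per kb.

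Of 83 other genes in 8 lists around this pathway, 65 passed the filter on low counts. With Dicer KO against control in LPS, 17 were higher and 21 lower, close to the shares of all genes (28.8% and 27%), and their median log2 difference was -0.09. In vehicle 15 were higher and 15 lower, beside 25% and 21.2% of all genes. Scaling by library totals took the median of all genes tested in LPS from -0.03 to -0.38 and these counts to 10 higher and 39 lower in LPS and to 6 and 22 in vehicle, so the directions below are relative to the bulk of genes. LPS against vehicle gave 20 higher and 33 lower in control and 19 higher and 37 lower in Dicer KO (12 and 47, and 9 and 50, with library totals). Of all genes, 38% were higher and 41.1% lower in control, and 37.4% and 42.7% in Dicer KO.

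The genes that make or recycle tetrahydrobiopterin after Gch1 did not rise with it. All 5 tested fell with LPS in both genotypes, beside 41.1% of all genes lower in control and 42.7% in Dicer KO, and DESeq2 called 4 of the 5 lower in Dicer KO. In Dicer KO with LPS, Pts (6-pyruvoyl-tetrahydropterin synthase) was lower, with a mean of 8.60 CPM against 11.2 CPM (log2 -0.38, adjusted p = 0.00642). Spr (sepiapterin reductase) read 4.24 against 5.55 CPM (log2 -0.39, adjusted p = 0.0206 with edgeR and 0.0819 with DESeq2). Of 9 tested genes for other synthases and the handling of nitric oxide, 1 was higher and 3 were lower in LPS. The shares of all genes were 28.8% and 27%, and library totals gave 0 higher and 7 lower. Adh5, which clears S-nitrosoglutathione, read 41.2 against 52.2 CPM (log2 -0.34, adjusted p = 6.9e-05). The calmodulin genes Calm2 (log2 -0.19, adjusted p = 0.00417) and Calm3 (log2 0.20, adjusted p = 0.00496) moved little with TMM scaling. Library totals took Calm2 to -0.54 and Calm3 to -0.16.

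Of the arginine transport list, 7 genes were tested, and LPS libraries of Dicer KO had 3 of them higher and 3 lower. The shares of all genes were 28.8% and 27%, and library totals gave 1 higher and 3 lower. Slc3a2, the heavy chain shared by several amino acid transporters, read 355.1 against 235.5 CPM with LPS (log2 0.59, adjusted p = 2.6e-08) and 277.3 against 174.6 CPM with vehicle (log2 0.67, adjusted p = 1.31e-08). Slc7a7, its partner in the y+L system, was higher with LPS (log2 0.33, adjusted p = 0.000261), a difference of -0.02 with library totals. Slc25a15, the mitochondrial ornithine carrier, was lower, at 2.53 against 5.21 CPM (log2 -1.05, adjusted p = 0.000109). Of 4 tested genes for the urea cycle and other arginine use, Gatm, the first enzyme of creatine synthesis, was higher at 77.2 against 39.3 CPM (log2 0.98, adjusted p = 2.86e-08). The arginine methyltransferase Prmt5 was lower (log2 -0.54, adjusted p = 0.00299), and Gamt, the next creatine enzyme, differed by -0.36 (adjusted p = 0.0533).

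Downstream of ornithine, none of the 6 tested genes of the proline and glutamate branch was higher in Dicer KO with LPS and 4 were lower, beside 28.8% and 27% of all genes, and DESeq2 called 3 lower. Oat, ornithine aminotransferase, read 35.3 against 51.3 CPM (log2 -0.54, adjusted p = 2.5e-06). Aldh18a1, which starts proline and ornithine synthesis from glutamate, read 2.93 against 5.70 CPM (log2 -0.96, adjusted p = 0.000203). In the polyamine list, 1 of 15 was higher and 4 were lower, beside the same shares of all genes, or 1 and 11 with library totals. Sat1, the acetyltransferase that starts polyamine breakdown, was the higher one, at 440.9 against 276.1 CPM (log2 0.68, adjusted p = 9.04e-07). Amd1, which supplies the aminopropyl donor, was lower (log2 -0.54, adjusted p = 0.000279), and so was Atp13a2, a lysosomal polyamine exporter (log2 -0.31, adjusted p = 0.000493).

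Of the 8 tested genes for SPSB paralogs and subunits of cullin ubiquitin ligases, 4 were higher and 1 lower in Dicer KO with LPS. The shares of all genes were 28.8% and 27%, and library totals gave 2 higher and 5 lower. The cullin Cul2 read 105.7 against 61.9 CPM (log2 0.77, adjusted p = 2.85e-09), while the values of the cullin Cul5 are not reported here. Eloc, the elongin that links the SOCS box to a cullin, differed by 0.30 (adjusted p = 0.000427), or by -0.05 with library totals, and Rnf7, the RING subunit paired with Cul5, was lower (log2 -0.32, adjusted p = 0.000197). In the list of alternative activation markers, to which Arg1 is usually counted, 6 of 11 were higher and 3 lower in LPS. The shares of all genes were 28.8% and 27%, and library totals gave 4 higher and 3 lower. Chil3, a chitinase-like protein, read 31.1 against 19.7 CPM (log2 0.66, adjusted p = 7.68e-07). Tgm2, a transglutaminase, read 319.5 against 205.3 CPM (log2 0.64, adjusted p = 1.92e-07) and was lower in Dicer KO with vehicle (log2 -0.40, adjusted p = 0.000298). Stat6, which carries the interleukin-4 signal, was lower with LPS (log2 -0.39, adjusted p = 1.69e-06).

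**Figure D4:**
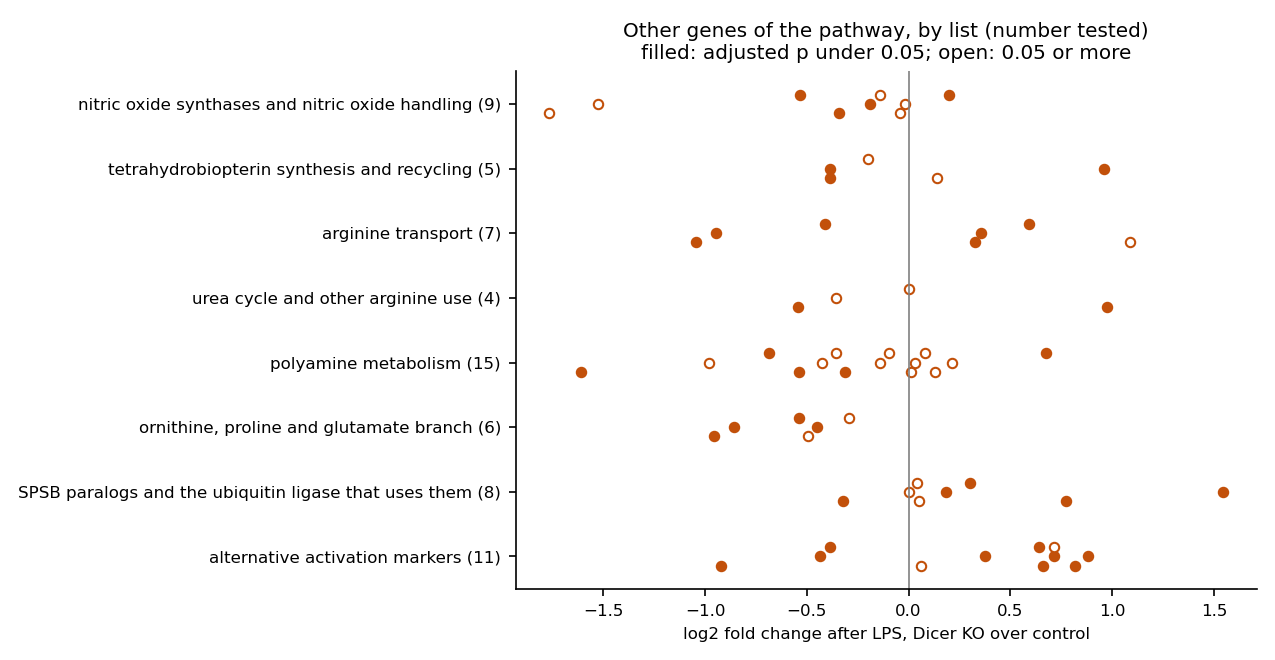
Log2 fold change of Dicer KO over control with LPS for the 65 other genes tested, 1 point per gene in the row of its list, filled where the adjusted p was under 0.05. The row of the ornithine, proline and glutamate branch lies below 0 throughout, while the arginine transport row spreads to both sides.

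The genes whose log2 CPM followed a member most closely were named from 9169 genes by Pearson's r over the 12 libraries. These libraries form separate vehicle and LPS clusters, so r describes the pattern over groups and no relation within a group. For Nos2 the closest were Fam20b (r = 0.9992), AW112010, Itgal, Slco3a1 and Fpr2 (r = 0.9982). Fam20b encodes a xylose kinase, Itgal an integrin chain and Fpr2 a formyl peptide receptor. Group means of Fam20b were 58.7 CPM in control and 68.1 CPM in Dicer KO with vehicle and 139.8 and 149.7 CPM with LPS, a far smaller range than that of Nos2. For Ass1 they were Gbp5 (r = 0.9991), Ms4a6c, Acod1, D17Wsu92e and Dbnl (r = 0.9981). Acod1, which makes itaconate, had means of 19.9 and 108.9 CPM with vehicle and 8183 and 12310 CPM with LPS, in control and Dicer KO. For Odc1 they were S100a8 (r = 0.9916), Gpr35, Elmod2, Itm2c and Gpr108 (r = 0.9874), with S100a8 means of 23.3 and 22.4 CPM with vehicle and 41.6 and 44.4 CPM with LPS.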

How the data were processed

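The labels' protocols name a stranded mRNA library kit for the 12 libraries. STAR 2.5, DESeq2 and the builds mm10 and GRCm38.p5 stand in the submitters' processing notes. The files deposited by the authors hold read counts per Ensembl gene. How reads were counted, and on which strand, is not given in the sources used here, and 45.8 to 46.8% of reads fell on no gene and were left out. Of 46078 identifiers, 45143 matched GENCODE M21, which gave symbols and coordinates. Genes passing filterByExpr (13837) were fitted with edgeR 4.0.16 in R 4.3.3, using TMM scaling and robust quasi-likelihood over all 12 libraries with 1 mean per group. The p-values were two-sided and Benjamini-Hochberg adjusted over all genes within each of 5 comparisons, with calls at 0.05. TMM factors ranged from 0.707 to 1.31, and fold changes are relative to the bulk of genes. The fitting was tested on simulated data. Alternatives were DESeq2 1.42.0, library totals, no filter, only the groups compared, a replicate block, each library left out, and, chosen after seeing the data, both libraries that stood apart left out. Up to 3 genes per list were named, those with the smallest adjusted p for Dicer KO against control in LPS (some are not reported here), and likeness was ranked among genes with a mean of at least 5 CPM, without predicted genes. The members, the 8 lists and the marker lists were chosen with earlier results of these data known.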

Additional observations from a re-analysis of the deposited data

Results flagged for a closer look

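The LPS response differed between genotypes, by the test of the difference itself, for 6 of the 9 members tested, beside 33.7% of all genes. Values are the log2 response in Dicer KO minus that in control, from edgeR's quasi-likelihood test. Spsb1 differed by 3.28 (adjusted p = 1.45e-06) and Arg2 by 2.78 (adjusted p = 1.23e-06), with larger rises in Dicer KO. Slc7a2 differed by 1.02 (adjusted p = 0.00305), from a vehicle level that was lower in Dicer KO. Ass1 differed by -0.91 (adjusted p = 0.000522), from a vehicle level that was higher in Dicer KO. Spsb2 differed by -0.58 (adjusted p = 0.000847) and Asl by -0.32 (adjusted p = 0.0199), with larger falls in Dicer KO. The Asl call was lost with DESeq2 (adjusted p = 0.0661). It was also lost without control LPS replicate 1, Dicer KO LPS replicate 1 or Dicer KO LPS replicate 2. The summed levels of dendritic cell markers, the Lyz2 locus and the reads of Apoe differ between the same genotypes, and their part in these differences was not tested.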

How the results depend on the processing

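Over the alternatives, 772 of 801 values for single members kept direction and side of the threshold. Leaving out each library in turn gave 4 to 6, 8 to 9, 9 to 9, 9 to 10 and 5 to 8 members called in the 5 comparisons (genotype in vehicle and in LPS, LPS in control and in Dicer KO, difference of the responses) and 5254 to 6950, 6979 to 8004, 10586 to 11153, 10735 to 11287 and 4021 to 5021 genes called. Without both libraries that stood apart, the members called were 6, 9, 9, 10 and 9. The genes called were 6617, 8324, 11188, 11198 and 5089. Arg1 entered this fit, so its member counts are out of 10. Where Arg1 entered a fit, these counts include it, and its vehicle difference there is no test, since it entered through its high group. Same-numbered replicates did not deviate together (correlations from -0.383 to 0.31), so the numbers were not taken as pairs. A replicate block gave 4, 8, 9, 9 and 6 members called, as without it, and 6310, 7675, 10918, 11034 and 4636 genes.

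The 9 values that changed sign were of differences not called either way. Asl in vehicle became -0.060 and Odc1 in LPS -0.14 with library totals, and the Odc1 difference of responses became -0.0045. Spsb1 in vehicle became 0.20 without control vehicle replicate 1 and ranged from -0.41 to 0.20 over the libraries left out. The Odc1 vehicle difference became 0.0025 with the replicate block, 0.11 and 0.03 without control vehicle replicates 1 and 2, 0.0002 without control LPS replicate 3 and 0.08 without Dicer KO vehicle replicate 2, in a range of -0.15 to 0.11.

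Library totals shifted the split of genes called. The higher ones were 2229 of 6806 instead of 3459 of 6394, 1885 of 9511 instead of 3983 of 7724, 3066 of 11803 instead of 5258 of 10948, 2637 of 12260 instead of 5173 of 11078, and 997 of 6133 instead of 2067 of 4669. Of members in vehicle, 3 of 5 called were then higher, instead of 3 of 4. Few reads limit Arg1, and the vehicle values of Spsb1, Arg2 and Slc7a2.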
